A study of Homo sapiens with 4 samples.

Results

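The NR4A orphan nuclear receptors are 3 genes, NR4A1, NR4A2 and NR4A3, of the 19901 genes, nearly all protein-coding, in the count table. They were taken by matching each Ensembl identifier to its gene symbol, and all 3 were found and were among the 12612 genes with at least 50 reads in every library, which were tested. Their nascent transcription was measured by transient transcriptome sequencing (TT-Seq), in which cells are fed 4-thiouridine for 10 min and only RNA that took up the label is purified and sequenced. All 4 libraries came from clone D5 of HCT116 KAP1_dTAG, a colon carcinoma line in which both groups carry KAP1 (gene TRIM28) fused to a degradable tag, grown in medium with fetal bovine serum. The DMSO group (n = 2) was treated with vehicle for 8 h and the dTAG group (n = 2) with the degrader dTAG for 8 h (500 nM dTAG-13 in the study's methods), so the comparison asks how transcription changed after acute loss of the KAP1 protein. One clone was used, cells with untagged KAP1 were not analysed here, and each library pooled several dishes. The study's methods call the 2 replicates of each condition biological, while the labels do not say whether they were separate cultures, so the p-values measure only the spread between these libraries.

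NR4A proteins are transcription factors of the nuclear receptor superfamily that act without a known natural ligand, because bulky side chains fill the pocket where other receptors hold a hormone. They bind the NBRE, the letters AAAGGTCA, as monomers, and NR4A1 and NR4A2 also pair with the retinoid X receptors. Activity is set mainly by how much protein is made, since the genes are immediate early genes: they are quickly switched on by growth factors, cyclic AMP, calcium and stress through CREB, MEF2 and SRF, and switched off again soon after. NR4A1 (Nur77) is known from T cell selection, steroid-producing tissue and apoptosis, NR4A2 (Nurr1) from the making of midbrain dopamine neurons, and NR4A3 (NOR-1) from muscle and from the fusion gene of extraskeletal myxoid chondrosarcoma. KAP1, also called TIF1beta, is best known as the corepressor of KRAB zinc finger proteins and has been described as a coactivator of NR4A1.

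Gene counts per library ran from 93105627 to 102314741. Of 9 markers of a colon epithelial line, 6 were tested and none was called (EPCAM, CDH1, KRT8, KRT18, KRT19 and CDX2; edgeR's quasi-likelihood test gave 1 higher and 1 lower at an unadjusted p under 0.05, and DESeq2 called 1 higher), with a summed level between 1063 and 1171 CPM (counts of a gene scaled to library size), while the intestinal markers VIL1, CDX1 and LGR5 did not exceed 21 counts. Of 9 markers of blood, vessel, stromal and nerve cells, only VWF and COL1A1 were tested, with a summed level for all 9 between 7.16 and 8.15 CPM. COL1A2 was at 0 in every library, and PTPRC and CD3E at 0 in both DMSO libraries. Library-wide drift with base composition was present: between the DMSO replicates the log2 ratio (replicate 2 over 1) had a Spearman correlation of 0.75 with the GC content of the gene, between the dTAG replicates −0.43, and the dTAG over DMSO log2 fold change −0.56, each described across the 12612 tested genes, which share the same 4 libraries.

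The counted unit was the whole gene, introns included, because nascent RNA still holds its introns. NR4A1 (ENSG00000123358.19) lies on the plus strand of chr12:52022831-52059507 (hg38, coordinates as the deposited table gives them, with starts that for most genes are 1 base before those of GENCODE 44), a stretch of 36.7 kb with 56.0% GC. Its canonical transcript spans only 8.06 kb and begins 28.6 kb inside the counted stretch, which holds 22 annotated transcripts, 13 of them coding with 10 start sites, and exons make up 19.9% of it. NR4A2 (ENSG00000153234.13) is on the minus strand of chr2:156324431-156342348, 17.9 kb with 45.1% GC, of which 23.0% is exonic, and its canonical transcript of 8.28 kb begins 9.63 kb into it. NR4A3 (ENSG00000119508.17) is on the plus strand of chr9:99821854-99866891, 45.04 kb with 43.0% GC and 14.0% exonic, and its canonical transcript spans 45.01 kb of it. No other gene of the table overlaps a member. In GENCODE 44, the antisense lncRNA NR4A1AS (minus strand, chr12:52058459-52059503) lies inside the end of NR4A1, and the lncRNA STX17-DT (minus strand, chr9:99397024-99906605) runs across the whole of NR4A3. The table behaved as if counted by strand, since all 420 genes lying wholly inside another gene of the same strand were at 0 in every library, against 121 of 608 (19.9%) lying inside a gene of the opposite strand.

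CREB is one of the factors through which these genes are induced, so the bases ahead of the annotated start sites are shown for the members that had an entry among the RefSeq promoters (GRCh38.p14, 2 of 3, none matched for NR4A2). Each sequence is the 250 bases before the start site, on the strand of the gene, with matches to TGACG, the core of the cyclic AMP response element, on either strand in capitals.
NR4A3, chr9:99821635-99821884, plus strand: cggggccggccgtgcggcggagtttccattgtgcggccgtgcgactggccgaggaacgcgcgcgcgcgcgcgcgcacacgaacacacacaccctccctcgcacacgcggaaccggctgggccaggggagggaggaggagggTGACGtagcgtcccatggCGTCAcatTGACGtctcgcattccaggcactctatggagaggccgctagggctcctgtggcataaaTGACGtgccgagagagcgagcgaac
NR4A1, first start site, chr12:52022582-52022831, plus strand: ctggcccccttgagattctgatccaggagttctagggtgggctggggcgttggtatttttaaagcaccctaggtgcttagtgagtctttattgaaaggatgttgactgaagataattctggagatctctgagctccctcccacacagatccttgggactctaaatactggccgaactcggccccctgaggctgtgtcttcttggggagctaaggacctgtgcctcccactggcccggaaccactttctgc
The NR4A3 sequence (68.0% GC) holds 4 such cores, at bases 109 to 105, 91 to 87, 83 to 79 and 25 to 21 before the start, and the second reads as CGTCA because it lies on the other strand. Of 35116 promoter windows of the same length, 21.2% held at least 1 core and 0.236% held 4 or more. The NR4A1 window at the beginning of the counted stretch held none of the 7 motifs searched on both strands (the full response element TGACGTCA and its core TGACG, the AP-1 site TGACTCA, the NBRE AAAGGTCA, the GC box GGGCGG, the CArG box bound by SRF and the MEF2 site), of which only the core overlaps another, the full element. The canonical NR4A1 transcript starts further downstream, at base 52051442 of chromosome 12, and the bases ahead of that start had no window here and were not examined, so the NR4A1 and NR4A3 windows are not alike in position. A second NR4A1 start with a window (chr12:52037465-52037714, plus strand) held 1 GC box, GGGCGG, at bases 196 to 191, a motif found in 42.6% of windows. None of the windows of the family held the NBRE or the full response element, which 1.05% and 1.65% of all windows held. These matches describe letters and do not show binding.

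In DMSO, the 3 genes were transcribed at very different levels. Per kilobase of the counted stretch, NR4A2 was highest at 1.73 and 2.13 CPM per kb in the DMSO libraries, NR4A1 followed at 0.364 and 0.443, and NR4A3 was lowest at 0.0224 and 0.0249. The order was the same in the dTAG libraries, with 1.91 and 1.53 for NR4A2, 0.636 and 0.528 for NR4A1, and 0.0313 and 0.0322 for NR4A3, and neighbours in the order did not overlap in any library. Among all tested genes, the DMSO levels per kilobase stood at percentile 69.6 for NR4A2, 26.0 for NR4A1 and 3.74 for NR4A3. Counting length only over the canonical transcript kept the order, at 4.18 CPM per kb for NR4A2, 1.84 for NR4A1 and 0.0237 for NR4A3 as DMSO means. This divides the reads of the whole stretch by the shorter length. The median over all tested genes, per kilobase of counted stretch, was 1.06 CPM per kb. NR4A1 lay below it by the counted stretch and above it by the canonical length, so its percentile depends on the length used. Here and below, fewer transcribing cells and less RNA per cell cannot be told apart in bulk libraries.

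NR4A1 was the one member of the family that passed the test, and it was higher after KAP1 loss. Its counts were 1323 and 1621 in DMSO and 2336 and 1748 in dTAG. Scaled to library size, these were 13.4 and 16.2 CPM in DMSO and 23.3 and 19.4 CPM in dTAG, so that both dTAG libraries lay above both DMSO libraries, as they did for 28.1% of all tested genes (58.8% did not overlap in either direction). The level averaged 14.8 CPM (SD 2.04, n = 2) in DMSO and 21.3 CPM (SD 2.80, n = 2) in dTAG. The log2 fold change was 0.53 ± 0.13 (SE) with a 95% confidence interval of 0.26 to 0.80 and an adjusted p of 0.017 (edgeR's quasi-likelihood test, Benjamini-Hochberg adjustment over all tested genes). This is a 1.44-fold higher level (1.20 to 1.73). Of all tested genes, 3.44% were called higher and 7.1% in either direction, and the log2 fold change of NR4A1 stood at percentile 99.1 of the tested genes. The size was not even across the group: dTAG replicate 1 was 1.58-fold and replicate 2 1.31-fold the DMSO mean. Leaving out dTAG replicate 1 gave a log2 fold change of 0.39 (adjusted p = 0.41) and leaving out dTAG replicate 2 gave 0.66 (adjusted p = 0.081), so the call was lost without either dTAG library.

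NR4A2, the most transcribed of the family, did not pass the test. Its counts were 3077 and 3815 in DMSO and 3428 and 2477 in dTAG. In CPM these were 31.1 and 38.2 in DMSO and 34.2 and 27.5 in dTAG, and the groups overlapped, with dTAG replicate 1 between the DMSO libraries and dTAG replicate 2 below all others. The mean was 34.7 ± 5.07 CPM in DMSO and 30.8 ± 4.79 in dTAG (SD, n = 2), a log2 fold change of −0.17 ± 0.12 (SE; 95% interval −0.41 to 0.076, adjusted p = 0.37), that is 0.890-fold with an interval of 0.752 to 1.05. The estimate turned positive, 0.49 and 0.16, when libraries were scaled to the ERCC spike-in totals or the spike-in factor was a covariate. Dropping DMSO replicate 1 moved the estimate to −0.31, and dropping DMSO replicate 2 moved it to −0.011. Each of these fits leaves 1 DMSO library, so only the estimates are given here.

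NR4A3, the least transcribed, was measured on 100 to 141 reads per library. Its counts were 100 and 112 in DMSO and 141 and 131 in dTAG, or 1.01 and 1.12 against 1.41 and 1.45 CPM. Both dTAG libraries were above both DMSO libraries, as they were for 28.1% of all tested genes. The replicates lay close together, with means of 1.07 ± 0.080 and 1.43 ± 0.031 CPM (SD, n = 2). The log2 fold change was 0.42 ± 0.24 (SE; 95% interval −0.085 to 0.93, adjusted p = 0.27), which did not pass the test, although it stood at percentile 98.3 of all tested genes. Counting error alone was wide: the exact 95% Poisson interval was 81.4 to 122 reads for DMSO replicate 1 and 110 to 155 for dTAG replicate 2 (counting error only). Among the 394 tested genes with a mean count within 1.25-fold of NR4A3, 7 (1.78%) were called in either direction and 0.254% were called higher. Their median log2 fold change was −0.24 and the median SE was 0.26. The smallest called change, of either sign, was 0.88 in size on the log2 scale. The log2 fold change of NR4A1, 0.53, was smaller than that. Since most of these calls were falls, they do not set the smallest rise that could be called at this depth.

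**Figure D1:**
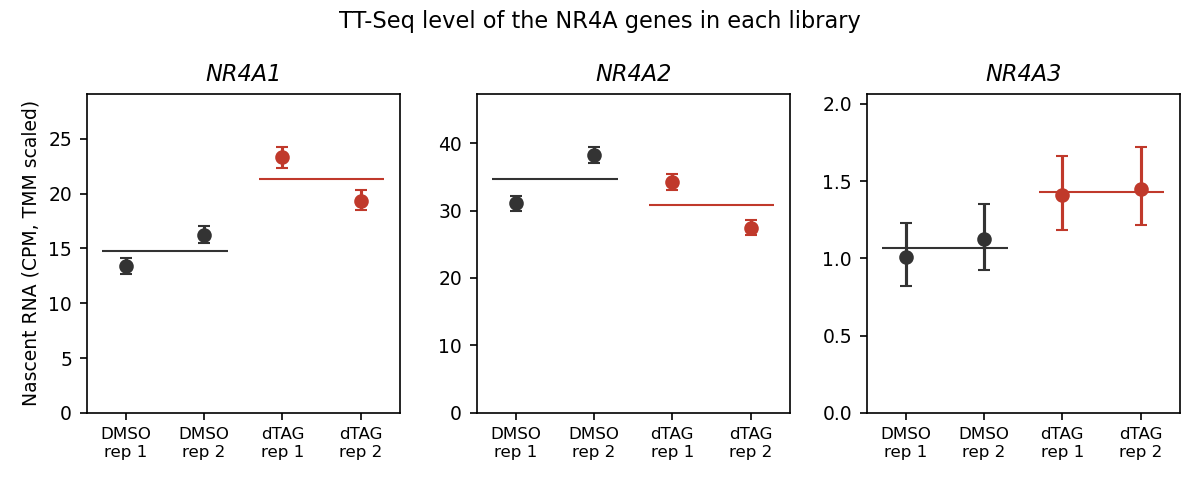
Level of each NR4A gene in the 4 libraries, in CPM (vertical axis, linear from 0, a scale of its own in each panel), with a point for each library, an error bar for its exact 95% Poisson interval (counting error only) and a line at the group mean. NR4A1 rises from 14.8 to 21.3 CPM without overlap, and NR4A2 overlaps between the groups. Both dTAG libraries of NR4A3 (1.41 and 1.45 CPM) lie above the DMSO libraries, as for NR4A1 and for 28.1% of all tested genes.

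NR4A1 and NR4A2 drifted together between replicates. From DMSO replicate 1 to 2 the log2 ratio was 0.28 for NR4A1 and 0.30 for NR4A2, and from dTAG replicate 1 to 2 it was −0.27 and −0.32. NR4A3 differed less, by 0.15 and 0.044. Because this drift was shared, the ratio of NR4A1 to NR4A2 reads within a library, which does not depend on library size, varied less between replicates than either gene: 0.430 and 0.425 in DMSO and 0.681 and 0.706 in dTAG. On the log2 scale the ratio was −1.23 ± 0.012 in DMSO and −0.53 ± 0.036 in dTAG (SD, n = 2), a difference of 0.70, or 1.62-fold. The difference was larger than the spread between replicates, but 2 libraries against 2 cannot give an exact two-sided permutation p below 0.333, and that was the value (adjusted p = 0.50 by Benjamini-Hochberg over the 3 pairs). The 2 genes differ in GC content (56.0% and 45.1%). With the trend over GC content and length removed, their separate log2 fold changes were 0.70 for NR4A1 and −0.14 for NR4A2. The part of the drift with base composition in the ratio itself was not tested.

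The ratio of NR4A2 to NR4A3 reads moved the other way, from 30.8 and 34.1 in DMSO to 24.3 and 18.9 in dTAG. The log2 difference was −0.59 (0.662-fold, exact permutation p = 0.333, adjusted 0.50). The ratio of NR4A1 to NR4A3 overlapped between the groups, at 13.2 and 14.5 in DMSO and 16.6 and 13.3 in dTAG, with a log2 difference of 0.10 (exact permutation p = 0.667, adjusted 0.667). Thus NR4A2 gave 68.4% and 68.8% of the family's reads in DMSO and 58.1% and 56.9% in dTAG, while NR4A1 gave 29.4% and 29.2%, then 39.6% and 40.1%. The share of NR4A3 was 2.22% and 2.02% in DMSO and 2.39% and 3.01% in dTAG. The summed level of the family overlapped between the groups, at 45.4 and 55.6 CPM in DMSO and 59.0 and 48.3 in dTAG.

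**Figure D2:**
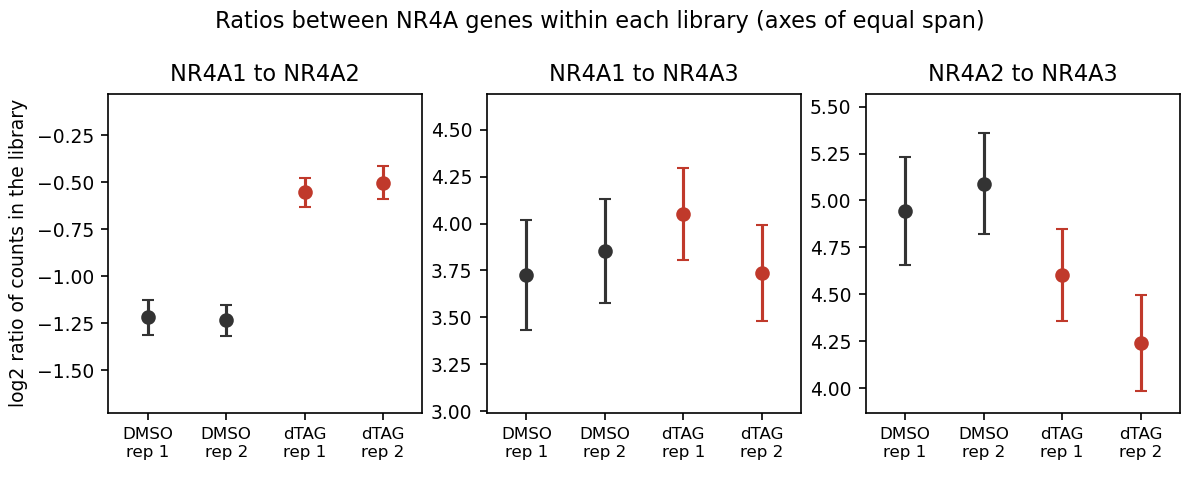
Log2 ratio of read counts of 2 NR4A genes within each library (vertical axis, same span in each panel), with a point for each library and an error bar for its 95% counting interval, in one panel per pair of genes. The NR4A1 to NR4A2 ratio sits near −1.23 in both DMSO libraries and near −0.53 in both dTAG libraries, while NR4A1 to NR4A3 overlaps.

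The drift with base composition touched the members unequally. Among the 1279 tested genes within 2 percentage points of the GC content of NR4A1, the median log2 fold change was −0.19, and NR4A1 was above 99.3% of them. Around NR4A2 (2070 genes) the median was 0.0042 and NR4A2 was above 18.2% of them, and around NR4A3 (2541 genes) it was 0.046 and NR4A3 was above 97.9%. With the trend over GC content and length removed, the log2 fold change of NR4A1 was 0.70 and it stayed called.

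The rest of the nuclear receptor superfamily was set beside the members. Of 45 other nuclear receptor genes in the table, 30 were tested, none was called higher and 3 (10% of the tested) were called lower, against 3.66% of all tested genes. At an unadjusted p under 0.05, edgeR gave 1 higher and 6 lower, and DESeq2 called none higher and 3 lower. Their median log2 fold change was −0.090, against −0.015 over all tested genes, with 12 above and 18 below 0 and a range of −0.77 to 0.19. THRA, the thyroid hormone receptor alpha, fell from 34.6 ± 3.39 to 23.9 ± 1.42 CPM (log2 fold change −0.54 ± 0.11 SE, adjusted p = 0.0040 by edgeR). NR1D1, the heme-binding clock repressor REV-ERB alpha, fell from 85.1 ± 14.3 to 64.3 ± 1.41 CPM (−0.41 ± 0.098 SE, adjusted p = 0.017), and it overlaps THRA on the opposite strand. ESRRB, an orphan receptor related to the estrogen receptors, fell from 12.4 ± 0.142 to 8.84 ± 0.0251 CPM (−0.49 ± 0.13 SE, adjusted p = 0.031). These falls have positive estimates under ERCC total scaling, where the median over all tested genes itself was 0.63, and all 3 stayed below that median. With the replicate number as a block, ESRRB was at −0.49 and lost its call (adjusted p = 0.11 by edgeR), while THRA and NR1D1 stayed called. NR1D1 was at −0.12 with the spike-in factor as covariate (adjusted p = 0.35 by edgeR, not called), −0.16 with the GC and length trend removed and −0.22 without DMSO replicate 2, both called, and THRA was at −0.34 with the spike-in factor, still called. None of the 3 was called without dTAG replicate 1 or without dTAG replicate 2, and over the 30 tested receptors the number of calls was 0 without either of these. With the GC and length trend removed, 2 receptors were called higher and 5 lower, where 1343 and 941 of the 12612 tested genes were. With the spike-in factor, 1 was called higher and 4 lower, where 797 and 525 of all tested genes were. Both settings called more of all tested genes higher than the reported fit (434). The absence of higher calls among the receptors thus depended on the setting. In order of log2 fold change among the 33 tested receptors, NR4A1 stood 1st, NR4A3 2nd and NR4A2 22nd. In DMSO level per kilobase of the counted stretch among all 48, NR4A2 stood 8th, NR4A1 21st and NR4A3 31st. The 15 untested receptors had at most 82 counts in any library, and NR0B1 and NR0B2 were listed at 0 in all 4.

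**Figure D3:**
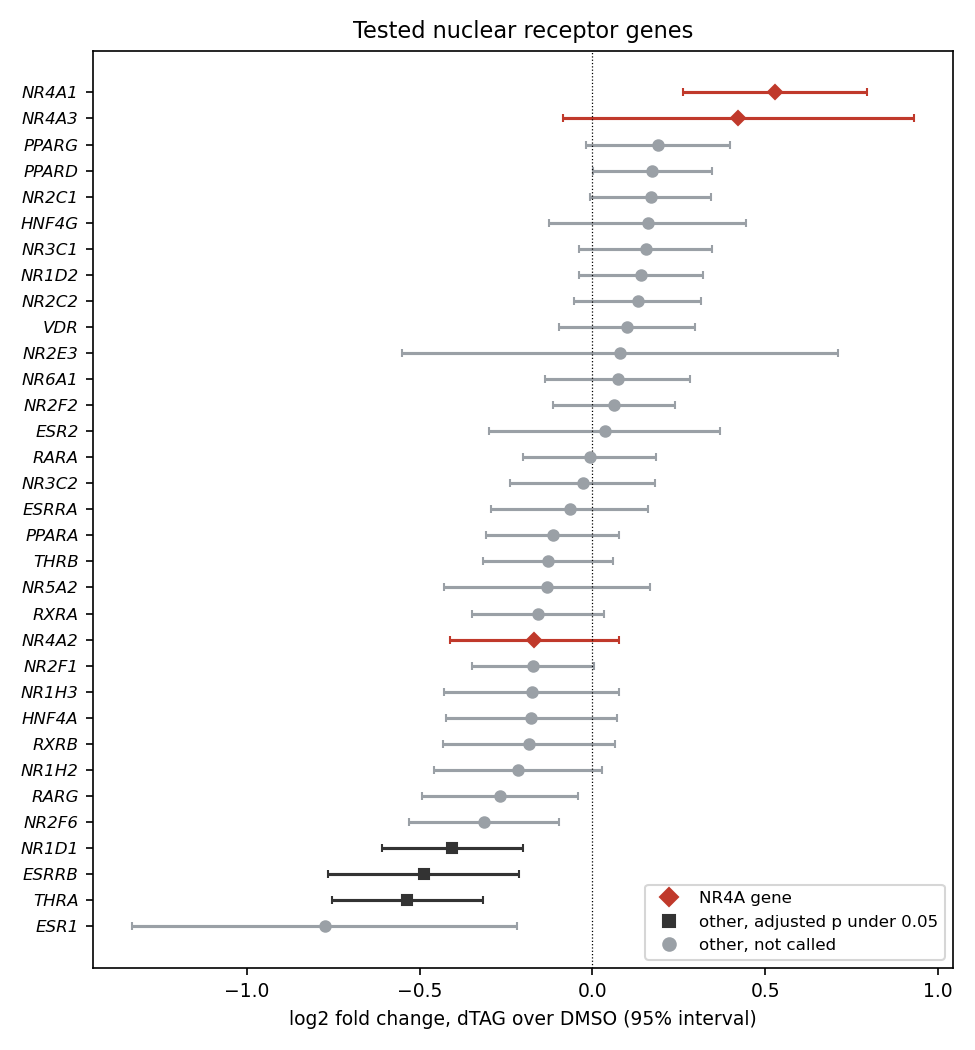
Log2 fold change (dTAG over DMSO, horizontal axis) with its 95% confidence interval for each of the 33 tested nuclear receptor genes, ordered by value, with the NR4A genes as red diamonds, other called genes as black squares and the rest as grey circles. NR4A1 (0.53) and NR4A3 (0.42) are at the top, above the highest other receptor (0.19), and NR4A2 (−0.17) is in the lower part.

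The kinases and factors that switch the NR4A genes on, their partners and their targets are described next. Over the 5 lists of regulators, partners and targets together, 60 of 78 genes were tested, and 3 rose and 3 fell (10% of the tested, against 7.1% of all tested genes), with a median log2 fold change of 0.0025. The number of calls in these lists was 0 with the replicate number as a block, where 340 of the 12612 tested genes were called, against 895 in the reported fit. It also depended on which library was left out, as did the number over all tested genes. Of the 14 genes of the cyclic AMP route, which holds the subunits of protein kinase A and the CREB factors with their coactivators, none was called by edgeR (1 higher and 2 lower at an unadjusted p under 0.05), DESeq2 called 1 higher and 1 lower, and the median was 0.063. Of 19 genes of the calcium route to MEF2, 16 were tested and 1 fell, MEF2C, one of the MEF2 factors themselves, from 188 ± 21.4 to 149 ± 7.47 CPM (−0.33 ± 0.093 SE, adjusted p = 0.037 by edgeR). MEF2C was at −0.54 with the spike-in factor as covariate, −0.52 with the GC and length trend removed and −0.21 without DMSO replicate 1, called in each. The median of that list was −0.0085, and MEF2B, PPP3R1 and PPP3R2 were listed at 0 in all libraries. MEF2B, PPP3R1 and PPP3R2 each overlap another gene, and reads shared by genes of the same strand appear uncounted here. Their 0s therefore need not mean that they were not transcribed. MEF2C overlaps antisense lncRNAs.

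The ERK route to SRF, which carries growth factor and serum signals to these promoters, had the most calls of the 5 lists. All 13 genes were tested, 3 rose and 1 fell (30.8% called, against 7.1% of all tested genes, of which 3.44% were higher and 3.66% lower), and the median was 0.085. RPS6KA5, the kinase MSK1 that phosphorylates CREB and histone H3, rose from 104 ± 9.43 to 137 ± 15.9 CPM (0.39 ± 0.094 SE, adjusted p = 0.017 by edgeR). ELK3, a ternary complex factor that sits beside SRF, rose from 115 ± 1.23 to 148 ± 5.14 CPM (0.37 ± 0.083 SE, adjusted p = 0.011). RPS6KA3, the kinase RSK2, rose from 94.99 ± 14.1 to 122 ± 3.67 CPM (0.37 ± 0.095 SE, adjusted p = 0.024), whereas RPS6KA1, the related RSK1, fell from 60.9 ± 11.2 to 47.1 ± 2.75 CPM (−0.37 ± 0.11 SE, adjusted p = 0.039). SRF itself was not called. The calls of these 4 kinases and factors were lost without either dTAG library or with the replicate number as a block, and RPS6KA1 was at −0.17 (adjusted p = 0.16) without DMSO replicate 2. With the spike-in factor as covariate, RPS6KA5, RPS6KA3 and RPS6KA1 were at 0.17, 0.13 and −0.037 and were not called (adjusted p = 0.85 for RPS6KA1 by edgeR). With the GC and length trend removed, RPS6KA5 was at 0.26, RPS6KA3 at 0.21, ELK3 at 0.34 and RPS6KA1 at −0.24, all called and all smaller in size than in the reported fit.

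Among 13 partners and cofactors of NR4A proteins, 12 were tested and 1 fell, TRIM28, the gene of KAP1. Its counts were 6107 and 6959 in DMSO and 5357 and 4321 in dTAG, a log2 fold change of −0.37 ± 0.092 (SE, adjusted p = 0.019 by edgeR). This call was lost without either dTAG library with the GC and length trend removed (−0.10) and with the spike-in factor as covariate (−0.19). The degrader acts on the protein, so the transcript level does not check the depletion. The dimer partners RXRA and RXRB had values of −0.16 and −0.18 and were not called, and RXRG was not tested. Of 19 genes known as NR4A targets in liver, muscle, adrenal or neurons, only ENO3, PYGM, SLC2A4, UCP3 and E2F1 had enough reads to be tested. None of these 5 was called by edgeR or DESeq2 (0 higher and 2 lower at an unadjusted p under 0.05 by edgeR), their median was −0.19, and the other 14 had at most 26 counts in any library, so that changes in them were not detectable at this depth. The falls of MEF2C, RPS6KA1 and TRIM28 too had positive estimates under ERCC total scaling, below the shifted median of 0.63.

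The study lists 16 genes induced at least 16-fold by serum in a separate RNA-seq experiment, and all 3 NR4A genes are among them. Of the 13 others, all were tested, 5 rose (38.5%, against 3.44% of all tested genes) and none fell (edgeR, 7 higher and 0 lower at an unadjusted p under 0.05, and DESeq2 called 5 higher), with a median log2 fold change of 0.43. The rise was uneven between the dTAG libraries. Their summed level, which weighs the most transcribed genes most, was 568 and 584 CPM in DMSO and 998 and 745 CPM in dTAG. Apart from DESeq2, the calls of this list were not counted under the alternative settings or with a library left out. In order of log2 fold change among the 16, NR4A1 stood 7th, NR4A3 9th and NR4A2 13th. In DMSO level per kilobase of the counted stretch NR4A2 stood 7th, NR4A1 12th and NR4A3 15th.

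The surroundings of the 3 genes differed. Within 250 kb of NR4A1 lie 13 genes of the table, of which 9 were tested, 2 rose and 1 fell, while 7.1% of all tested genes were called. KRT80, a type II keratin gene 109.5 kb away, rose from 23.8 and 28.2 CPM in DMSO to 55.9 and 57.1 CPM in dTAG (log2 fold change 1.12 ± 0.099 SE, adjusted p = 1.2e-06 by edgeR). KRT86, a hair keratin gene 190 kb away, rose from 2.96 and 2.55 to 5.87 and 5.29 CPM (1.02 ± 0.18 SE, adjusted p = 0.0018). FIGNL2, 174 kb away on the other side, fell from 2.25 and 3.57 to 1.63 and 1.51 CPM (−0.89 ± 0.24 SE, adjusted p = 0.029). KRT86 was at 0.94 (adjusted p = 0.060) without dTAG replicate 1, and the call of FIGNL2 was lost without DMSO replicate 2 (−0.52, adjusted p = 0.14), without either dTAG library and with the spike-in factor as covariate (−0.32, adjusted p = 0.59 by edgeR). The nearest tested genes, TAMALIN at 6.94 kb and the autophagy gene ATG101 at 9.74 kb, were not called. Around NR4A2 the only gene of the table within 250 kb was GPD2, the mitochondrial glycerol-3-phosphate dehydrogenase, at 92.9 kb, which was not called. The nearest tested gene on the other side was GALNT13 at 1871 kb. Around NR4A3 the 3 genes of the table within 250 kb were STX17 (39.7 kb), ERP44 and INVS, with log2 fold changes of 0.12 to 0.14 and no call. SEC61B was the nearest tested gene on the other side at 591 kb.

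**Figure D4:**
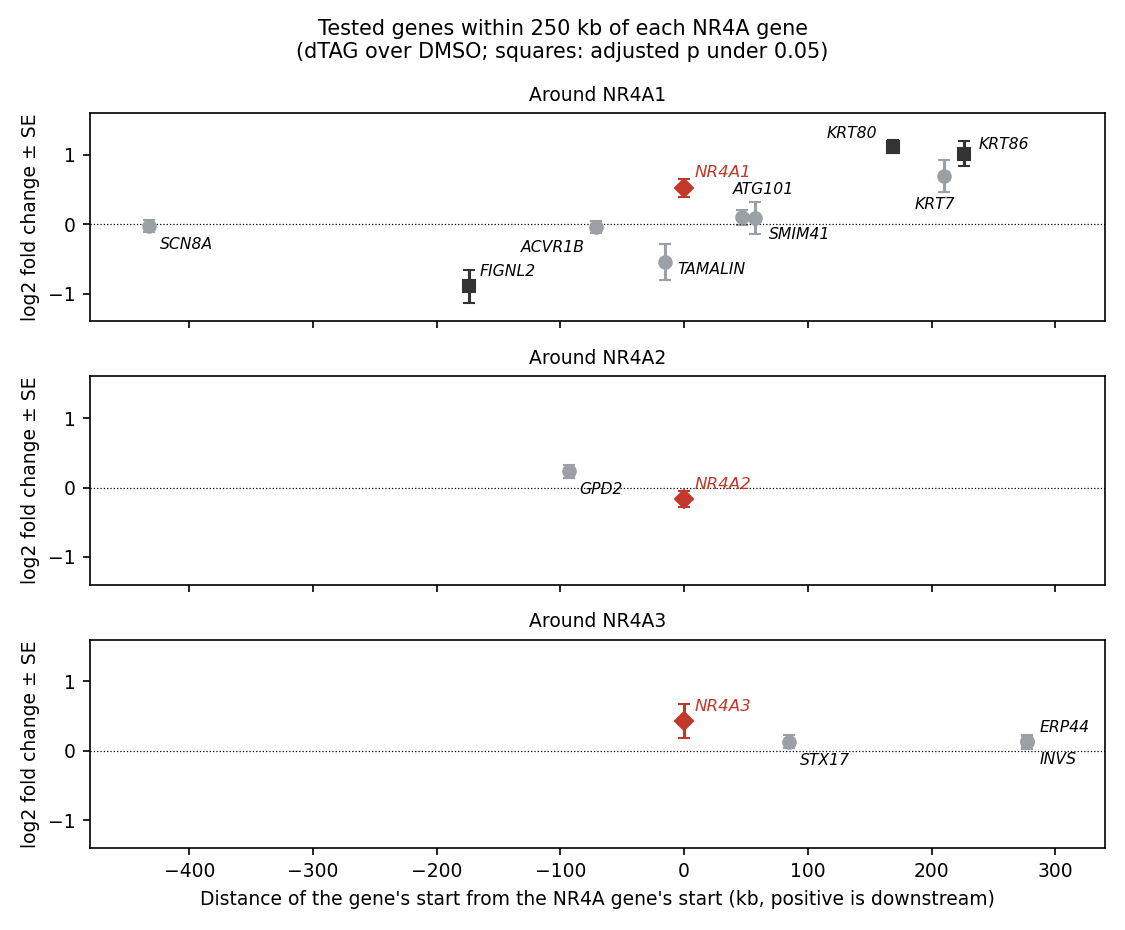
Log2 fold change with its SE (dTAG over DMSO, vertical axis) of the tested genes within 250 kb of each NR4A gene, placed by the distance of their start from the start of the NR4A gene (horizontal axis, kb, positive downstream). Red diamonds are the NR4A genes, black squares are called neighbours and grey circles the others, with KRT80 (1.12) and KRT86 (1.02) above NR4A1 and no called neighbour at NR4A2 or NR4A3.

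To describe which genes had the most similar pattern, log2 CPM values were set against the DMSO mean of the same gene and compared over the 4 libraries by Euclidean distance, which uses the same values as the test and is a description. Among the nearest to NR4A1 were FOSL1 (an AP-1 subunit, distance 0.074) and MGLL (monoglyceride lipase, 0.077), both called higher. NR4A3 was at 0.285 from NR4A1, with 64 genes nearer, and NR4A2 was at 0.987, with 8845 of the tested genes nearer. Nearest to NR4A2 were ENSG00000272896 (0.032), TFEB, a regulator of lysosome genes (0.046), and MRPL36, a mitochondrial ribosome protein (0.051), none of them called. Nearest to NR4A3 were PCK2, the mitochondrial PEP carboxykinase (0.041), STK40 (0.052) and GOLT1A (0.055), of which PCK2 and STK40 were called higher.

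Across the 15 alternative settings tried, NR4A1 was higher in 15 and called in 12, and NR4A3 was higher in 15 and called in 0. NR4A2 was called in 1, the fit without DMSO replicate 1, which leaves 1 DMSO library. The settings are not equally strict. Of the 12612 genes, 0 were called with ERCC totals as library sizes, 340 with the replicate block, 2284 with the GC and length trend removed and 3190 with the block numbers crossed. The adjusted p ranged from 1.8e-08 to 0.47 for NR4A1, from 0.0025 to 0.998 for NR4A2 and from 0.20 to 0.95 for NR4A3. Measured against the median of all tested genes, NR4A1 was at 0.54 in the fit reported here, 0.56 with ERCC totals as library sizes and 0.84 with the spike-in factor as covariate, NR4A3 at 0.44, 0.46 and 0.53, and NR4A2 at −0.15, −0.14 and 0.17.

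**Figure D5:**
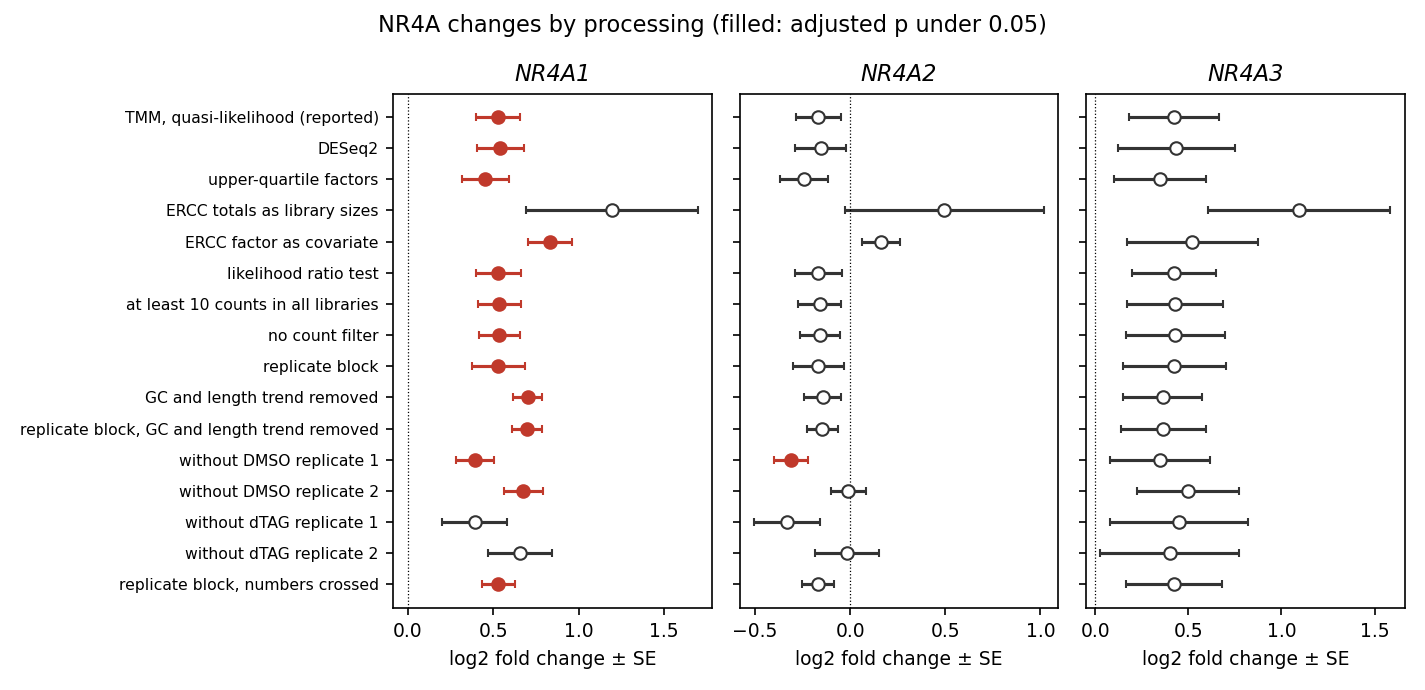
Log2 fold change (dTAG over DMSO, horizontal axis) with its SE for NR4A1, NR4A2 and NR4A3 under the reported fit and each of the 15 alternatives, one row per setting, with filled points for an adjusted p under 0.05. NR4A1 and NR4A3 stay right of 0 in every row, and NR4A2 crosses 0 in the 2 rows that use the ERCC spike-ins.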

How the data were processed

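Nascent RNA from 4 TT-Seq libraries was analysed. The deposited table holds raw read counts per gene, made by the authors from reads that passed FastQC (0.11.8) and Trim Galore (0.6.4) and were aligned with STAR to hg38 and counted with featureCounts (Subread 1.6.3) over whole genes, as the labels and methods state. The strand setting was not given in the sources used here. Columns of the table that belong to no sample: 0. The 92 ERCC spike-in RNAs were kept out of library sizes and tests.

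Genes reaching 50 counts in each library were scaled by TMM and tested with edgeR (4.0.16; R 4.3.3), by the quasi-likelihood F test with Benjamini-Hochberg adjustment over 12612 genes, and called at an adjusted p under 0.05. Standard errors and 95% intervals come from that fit. CPM are TMM scaled. Symbols came from GENCODE 44. Ratios within libraries were compared with an exact two-sided permutation test. The main kinds of fit were also run on simulated counts, but not the other count filters, the crossed block or every left-out library. The simulated counts held no drift with GC content. Alternatives were DESeq2 (1.42.0), other scalings and filters, GC and length trends (lowess span 0.3), a replicate block and leaving out each library.

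The members, gene lists and tests were chosen with earlier results of these data known. Genes named are the members, TRIM28, at most 3 called genes per list and direction, nearest neighbours and called genes within 250 kb, and the 3 most similar genes to each member, of which 1 is not reported here. Markers, list members at 0, receptors of the retinoid X class, SRF and uncalled targets were named besides, after their values were seen.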

Additional observations from a re-analysis of the deposited data

How the results depend on the processing

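NR4A1 stayed called in 12 of 15 alternatives and NR4A3 in none. Scaling to ERCC totals gave log2 fold changes of 1.19 for NR4A1 (adjusted p = 0.47 by edgeR, not called) and 0.49 for NR4A2, with 0 called genes among all tested (229 at an unadjusted p under 0.05), 0 other nuclear receptors and 0 genes of the regulator, partner and target lists. Under it the median over tested genes was 0.63, with estimates of 0.13 for THRA, 0.28 for NR1D1, 0.16 for ESRRB, 0.29 for MEF2C, 0.32 for RPS6KA1 and 0.28 for TRIM28. The spike-ins had only 9551 to 25165 reads per library. With the ERCC factor as covariate, NR4A2 was at 0.16 and 5 other nuclear receptors were called. The likelihood ratio test called 1593 genes and 5 other receptors, and testing without a count filter called 1417 genes. Removing the GC and length trend called 2284 genes, 7 other receptors and 12 listed genes. Under upper-quartile factors 255 genes were called higher and 869 lower, against 434 and 461, under the ERCC factor 60.3% of calls were higher against 48.5%, and with the GC and length trend removed 58.8%.

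The deviations of libraries with the same replicate number had r = −0.25 across genes. With 2 libraries per group this is 1 value of either sign, the replicates also differed with GC content, and the labels do not say that the numbers pair libraries, so pairing was not established. The fit with the replicate block called 340 genes and 0 listed genes, and NR4A1 kept its call (0.53, adjusted p = 0.031 by edgeR). With both the block and the GC and length correction, 2627 genes, 8 other receptors and 12 listed genes were called. Crossing the numbers, chosen after seeing the data, gave 3190 genes, 6 other receptors and 15 listed genes.

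Leaving out each library in turn, with the lone sample assumed to vary like the others, gave 0.39 to 0.68 for NR4A1, −0.33 to −0.011 for NR4A2 and 0.35 to 0.50 for NR4A3. The called genes ranged from 69 without dTAG replicate 2 to 5491 without DMSO replicate 1, with 138 without dTAG replicate 1 and 1499 without DMSO replicate 2. Other receptors ranged from 0 to 16 and listed genes from 0 to 34. The log2 difference of the NR4A1 to NR4A3 ratio ranged from −0.052, without dTAG replicate 1, to 0.26, without dTAG replicate 2. The call of TRIM28 was also lost with the ERCC factor, the replicate block, the GC and length trend removed, and without either dTAG library. The causes of these changes were not tested.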
